A study of Mus musculus with 11 samples.

Results

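The genes described here are 7 genes listed together as early temporal genes, Hmga1, Hmga2, Lin28a, Lin28b, Igf2bp1, Igf2bp2 and Igf2bp3. They were chosen by name, with earlier results of these data known, out of 48440 genes in the table of NPC cultures and 32285 genes in the scRNA-seq matrices. Of the 7 genes, 5 were tested in the cultures among 14432 genes that passed the filter on low counts, and Lin28a and Lin28b did not pass. Hmga2 had also been singled out by the study on these same libraries, so that its direction is not independent evidence.

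The study deleted Syncrip, which encodes the RNA binding protein hnRNP Q, by crossing mice with loxP sites around exons 2 to 4 to Emx1-Cre mice on a C57BL/6 background. Emx1-Cre acts in progenitors of the dorsal neocortex and their progeny, so that cells from the ganglionic eminences, Cajal-Retzius cells of other origins, and vascular and blood cells largely keep the gene. Bulk RNA-seq compared 3 WT and 3 cKO cultures of NPCs from the lateral ventricles at E14.5, grown with EGF and bFGF. No label states that these cultures came from separate animals, so that p-values measure the spread between cultures, which may be technical. scRNA-seq compared the dorsal neocortex of 1 WT and 1 cKO embryo of the same pregnancy at E14.5, so that genotype cannot be told apart from the embryo, its sex or its dissection. The control genotype is given only as WT or control.

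Of these genes, Lin28a and Lin28b belong, together with let-7, to a circuit known from nematodes to mammals for the timing of development. Hmga1 and Hmga2 encode small chromatin proteins that bind AT-rich DNA, and Hmga2 is known to sustain self-renewal of fetal neural stem cells. Lin28a and Lin28b encode RNA binding proteins that block the maturation of let-7 microRNAs, and let-7 in turn represses mRNAs that carry its target sites, among them those of Hmga2, Lin28b and Igf2bp1. Igf2bp1, Igf2bp2 and Igf2bp3 encode RNA binding proteins that stabilise, transport or repress mRNAs such as those of Igf2, Actb and Myc. All of these are best known from embryonic tissue, and most decline as development proceeds.

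The let-7 family is shown first because the seed of these microRNAs, bases 2 to 8 in capitals, was the sequence searched for in the 7 genes. RefSeq lists 11 mature names of the family on GRCm38.p6, and 10 of them have the seed GAGGUAG. The sequences of 3 of these, and of let-7j with its different seed, read as follows.
let-7a-5p: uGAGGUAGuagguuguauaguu
let-7c-5p: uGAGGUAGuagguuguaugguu
miR-98-5p: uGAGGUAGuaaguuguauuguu
let-7j: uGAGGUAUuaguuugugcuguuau

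The complement of the common seed, CTACCTC, was searched for on the transcribed strand of the longest annotated 3′ UTR of each gene (GENCODE M21, GRCm38, the same assembly as mm10). All 7 genes held it, at 17 sites in all, whereas it occurred in 9.02% of the 3′ UTRs of 21020 protein-coding genes. Those 3′ UTRs had a median of 961 bases, shorter than that of each of the 7 genes. Known let-7 targets are among the 7 genes, so that sites in them are not a finding of these data. At 9 of the 17 sites, in 6 of the 7 genes, an A followed the 7 letters, which makes the 8-letter match CTACCTCA, a kind known for strong repression. Such an 8-letter site occurred in 3.06% of all 3′ UTRs. The sites are printed as 22 bases of the mRNA strand, 5′ to 3′, with the match in capitals, for 1 site of each gene, an 8-letter site where there is one.
Hmga1: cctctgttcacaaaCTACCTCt
Hmga2: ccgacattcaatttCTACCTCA
Lin28a: cacagcctgttgaaCTACCTCA
Lin28b: cccgggcgggaagtCTACCTCA
Igf2bp1: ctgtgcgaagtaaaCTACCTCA
Igf2bp2: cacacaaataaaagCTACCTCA
Igf2bp3: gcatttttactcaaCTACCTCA

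On mm10 the Hmga2 site lies at chr10:120364224-120364245 on the minus strand, with the match starting at base 58 of a 3′ UTR of 3014 bases. The Lin28b site lies at chr10:45381022-45381043 on the minus strand, with the match starting at base 36 of a 3′ UTR of 4445 bases. The Igf2bp1 site lies at chr11:95961778-95961799 and the Igf2bp3 site at chr6:49086787-49086808, both on the minus strand. The other sites lie at chr17:27563278-27563299 on the plus strand for Hmga1, at chr4:134005189-134005210 on the minus strand for Lin28a and at chr16:22059473-22059494 on the minus strand for Igf2bp2.

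Hmga2, Lin28b and Igf2bp1 each held 4 sites. Among 3′ UTRs within 20% of their length, 0.134% of 2245, 0.236% of 1271 and 0.355% of 564 held as many, respectively. Lin28a held 2 sites, which 2.1% of 2429 3′ UTRs of like length reached. Hmga1, Igf2bp2 and Igf2bp3 held 1 site each, and at least 1 site was present in 8.07%, 12.1% and 13.3% of 3′ UTRs of like length. A match in letters is a description of the annotated sequence, and neither let-7 nor its binding was measured in these libraries.

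**Figure D1:**
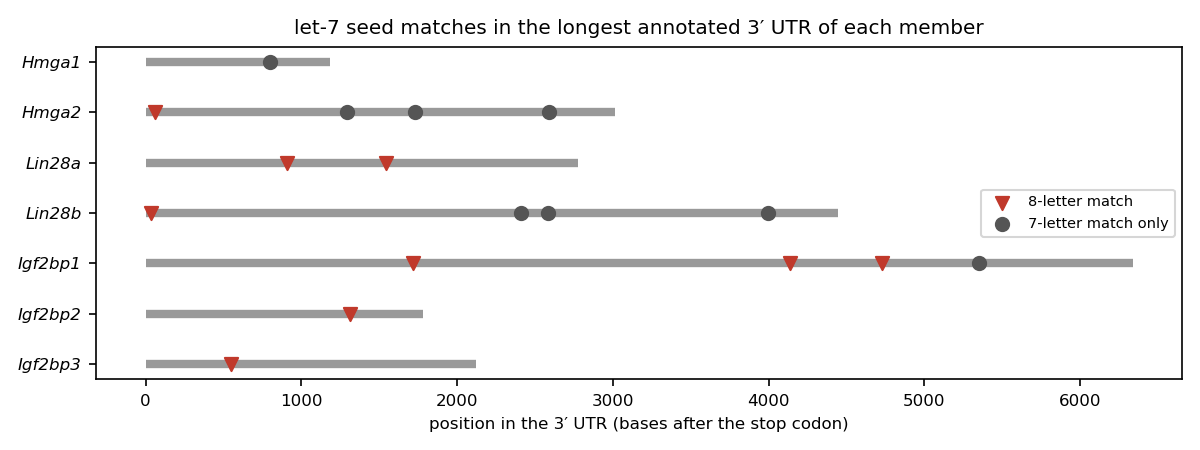
let-7 seed matches along the longest annotated 3′ UTR of each gene; grey bars give the 3′ UTR and the x axis gives bases after the stop codon, red triangles mark 8-letter matches and grey circles matches of 7 letters only. Hmga2 and Lin28b each have an 8-letter match that starts within the first 58 bases, and Igf2bp1 has 3 of them in 6337 bases.

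In the NPC cultures, Hmga2, Igf2bp2 and Igf2bp3 were upregulated in cKO, Hmga1 and Igf2bp1 did not pass the test, and both Lin28 genes were barely counted. Thus 3 of the 5 genes tested were higher and 0 lower by edgeR's quasi-likelihood test (adjusted p below 0.05 over all genes tested). The background was high in this comparison, since 19.7% of all genes tested were higher and 19.8% lower in cKO, 39.5% in all. Values below are TMM-scaled CPM, read counts relative to the effective size of each library, for each culture in replicate order.

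Syncrip, the targeted gene, had 77.9, 79.8 and 79.9 CPM in WT and 90.3, 88.7 and 81.5 in cKO (log2 fold change 0.13, SE 0.08, edgeR adjusted p = 0.18). Counting took in the whole gene, exons outside the deletion included, so that this value does not check the deletion or the labels. By Y-linked counts WT replicates 1 and 2 and cKO replicate 1 were male and the other cultures female.

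For Hmga2, CPM was 0.811, 0.891 and 1.12 in WT and 6.13, 7.11 and 5.83 in cKO. The lowest cKO culture was above every WT culture, as for 25.7% of all genes tested, while 24.7% lay wholly below and 50.4% did not overlap in either direction. The means were 0.939 ± 0.158 and 6.36 ± 0.666 (SD, n = 3), a log2 fold change of 2.74 (SE 0.23, edgeR adjusted p = 1.06e-06). These levels rested on 16 to 25 reads per WT culture and 121 to 125 per cKO culture, so that the gene was low even where it rose. In the annotation 20.5% of the span of Hmga2, but 2.07% of its exon bases, is shared with other genes, and whether counting used the strand is not known.

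Hmga1, which encodes the relative of Hmga2, behaved otherwise. Its CPM was 47.7, 62.1 and 55.9 in WT and 43.5, 57.3 and 50.2 in cKO, so that the groups overlapped. The log2 fold change was −0.13 (SE 0.12, edgeR adjusted p = 0.396).

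Lin28a had 0 reads in every WT culture and 0, 0 and 3 in cKO. Lin28b had 3, 0 and 0 reads in WT and 0, 0 and 1 in cKO. Neither gene was therefore detectable above the limit of 3 counts in any culture, and no fold change is given.

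Igf2bp3 was the most abundant of its family in the cultures. Its CPM was 76.6, 73.8 and 78.3 in WT and 145, 143 and 131 in cKO, with no overlap. The means were 76.2 ± 2.27 and 140 ± 7.66 (SD, n = 3), a log2 fold change of 0.87 (SE 0.07, edgeR adjusted p = 1.01e-06). Exons of other genes cover 18.7% of its exon bases, those of Malsu1 and Gm18010 on the opposite strand, and Malsu1 itself was higher in cKO at 16.5 ± 1.85 against 25.7 ± 1.21 CPM (log2 fold change 0.64, SE 0.11, edgeR adjusted p = 0.000504). The share of Igf2bp3 reads from this overlap was not tested.

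Igf2bp2 was likewise higher in cKO without overlap, at 22.3, 23.6 and 23.5 CPM in WT and 30.9, 34.0 and 29.9 in cKO. Its log2 fold change of 0.45 (SE 0.10, edgeR adjusted p = 0.00214) was the smallest of those called, and no other annotated gene overlaps its span.

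Igf2bp1 was scarce and uneven. It had 3, 6 and 21 reads in the WT cultures and 19, 28 and 14 in cKO, which gave 0.135, 0.334 and 0.937 CPM against 0.932, 1.63 and 0.675. The groups overlapped through WT replicate 3 and cKO replicate 3. The log2 fold change of 1.15 (SE 0.56, edgeR adjusted p = 0.116) did not pass, and it became 2.20 (edgeR adjusted p = 0.0132) without WT replicate 3.

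Per kilobase of exon sequence, Hmga1 stood first in WT cultures at a mean of 26.0 CPM, then Igf2bp3 at 9.35, Igf2bp2 at 3.13, Hmga2 at 0.139 and Igf2bp1 at 0.0484. In cKO cultures the order was the same, with 23.7 for Hmga1, 17.1 for Igf2bp3, 4.27 for Igf2bp2, 0.939 for Hmga2 and 0.112 for Igf2bp1.

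**Figure D2:**
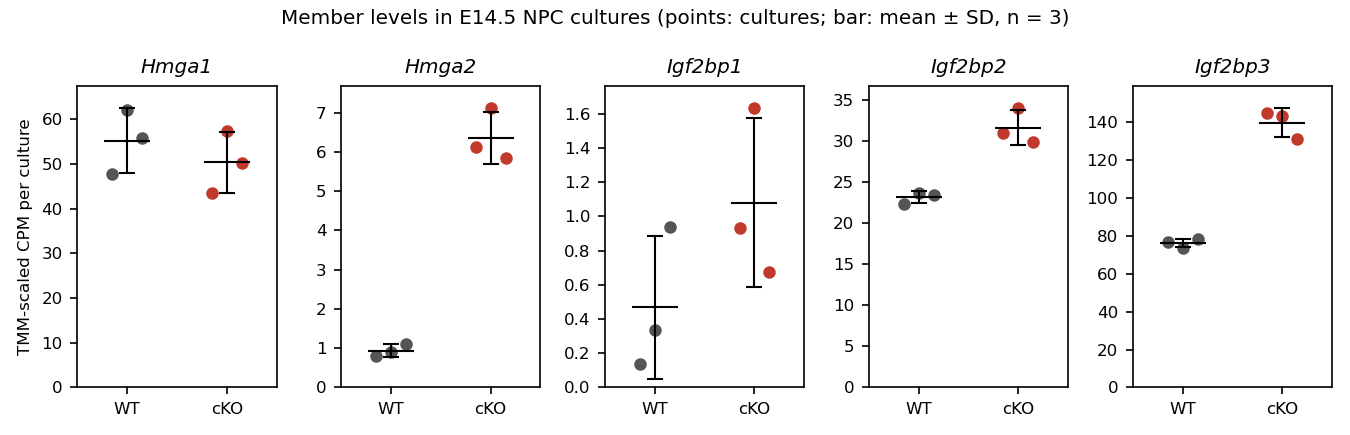
TMM-scaled CPM of the 5 genes tested in 3 WT and 3 cKO NPC cultures; points are cultures, the horizontal bar is the mean and the whiskers are 1 SD, and each y axis starts at 0. Hmga2, Igf2bp2 and Igf2bp3 show no overlap between genotypes, while Hmga1 and Igf2bp1 do.

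Lists of related genes moved in both directions in the cultures. For each list below, cell type markers included, the share over all genes tested was 19.7% higher and 19.8% lower. Of 15 genes of small RNA processing, 6 were higher and 0 lower, with a median log2 fold change of 0.13 against 0.00 over all genes tested. The largest of these changes were in Hnrnpa1, which encodes a protein that binds let-7 precursors, at 0.44 (SE 0.09, edgeR adjusted p = 0.00127), Zcchc11, the uridylyltransferase that works with Lin28 on let-7 precursors, at 0.44 (SE 0.08, edgeR adjusted p = 0.000886), and Ago4, an Argonaute, at 0.39 (SE 0.10, edgeR adjusted p = 0.00579). Dicer1 and Drosha, the processing enzymes themselves, did not pass the test, at 0.13 and 0.15 on the log2 scale. Mir99ahg, the host transcript of let-7c-1, had 55.6, 47.5 and 40.8 CPM in WT and 90.3, 86.9 and 79.3 in cKO (log2 fold change 0.83, SE 0.11, edgeR adjusted p = 4.52e-05). The other annotated let-7 transcripts did not pass the filter, and mature microRNAs were not measured.

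Of 20 other known let-7 target genes, 4 were higher and 10 lower, with a median log2 fold change of −0.09. Mycn, a transcription factor of proliferating progenitors, fell from 12.1 ± 4.75 to 1.60 ± 0.391 CPM (log2 fold change −2.90, SE 0.28, edgeR adjusted p = 3.81e-06). Arid3a fell by 0.71 and Myc by 0.50 on the log2 scale, whereas Ccnd1, encoding cyclin D1, rose by 0.40. A link between this list and the changes of Hmga2, Igf2bp2 and Igf2bp3 was not tested.

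Among 11 genes of the IGF axis, 5 were higher and 2 lower. Igfbp2, which encodes an IGF binding protein of fetal brain, rose from 145 ± 19.2 to 468 ± 56.7 CPM (log2 fold change 1.69, SE 0.11, edgeR adjusted p = 1.13e-07). Igfbp5, which encodes another IGF binding protein, fell by 1.25 on the log2 scale and H19, the imprinted RNA next to Igf2, by 1.196, while the receptor gene Insr rose by 0.31. Igf2, the mRNA that gave the Igf2bp genes their name, was below the filter, with no culture above 0.357 CPM.

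Of 7 mRNAs known to be bound by Igf2bp proteins, 2 were higher and 4 lower. Cd44 rose by 0.67 and Btrc by 0.23 on the log2 scale, whereas Mapt fell by 1.33, H19 by 1.196, Myc by 0.50 and Gap43 by 0.36. Actb, the best known of these mRNAs, had a log2 fold change of −0.08 (edgeR adjusted p = 0.488). Of 4 genes known as HMGA targets, 2 were higher and 1 lower. Cdkn2b, the gene of the cell cycle inhibitor p15, fell by 1.44 on the log2 scale, while the cyclin genes Ccna2 and Ccnb2 rose by 1.22 and 0.80. Cdkn2a, known to be repressed by Hmga2 in neural stem cells, did not pass the test at −0.09 (SE 0.21, edgeR adjusted p = 0.759).

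Markers listed for other cell types moved with genotype in the same cultures. Of 7 astrocyte markers tested, 6 were lower and 0 higher, and their summed level was 5523 to 5778 CPM in WT and 3286 to 3674 in cKO. Sox9 and Aldoc, both among the lower ones, were also used as apical progenitor markers in the tissue. This list therefore does not separate astrocytes from progenitors. Gfap was at 0 throughout. Of 11 neuron markers tested, 8 were lower and 0 higher, and Tubb3 was listed at 0. Their sums were 2110 to 2459 CPM in WT and 2220 to 2357 in cKO, mostly from Map2. Map2 had means of 1444 and 1647 CPM and did not pass (log2 fold change 0.19, edgeR adjusted p = 0.111). The fall was largest in Stmn2, from 15.1 to 0.152 CPM, then Neurod6, from 16.3 to 0.904, and Neurod2, from 6.40 to 1.35. Of 8 oligodendrocyte lineage markers 2 were higher and 3 lower, of 3 pericyte markers tested 2 were lower, and of 2 microglia markers and 1 meningeal marker tested 1 each was higher. Neither of 2 endothelial markers tested passed, and no red blood cell marker was above the filter. Fewer cells of a type and less RNA per cell cannot be told apart in bulk RNA, and the part of these shifts in the changes of Hmga2, Igf2bp2 and Igf2bp3 was not tested.

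In the tissue, 8214 of 8289 WT and 9560 of 9659 cKO barcodes were kept, with a median of 11705 and 11012.5 UMIs. Cells were grouped into classes by markers and are called apical progenitor-like (AP-like), intermediate progenitor-like (IP-like) and so on, from clusters built without the 7 genes. The endothelial-like class changed when clusters were made coarser or finer, as given below. The 2 libraries shared 22 barcodes, 0.265% and 0.228% of each. UMIs were summed over all cells of a class and given as CPM of all UMIs of that class, and intervals are 95% Poisson intervals that cover counting error only. No test between genotypes is possible with 1 embryo each. Syncrip was 312 CPM in WT and 322 in cKO AP-like cells (log2 ratio 0.04) and 304 and 309 in IP-like cells (0.02). It was 278 and 326 CPM in migrating neuron-like cells (0.23) and 288 and 325 in immature neuron-like cells (0.18). In GE-like cells it was 307 and 267 CPM (−0.21, −0.27 to −0.14). These counts from the 3′ end of transcripts do not check the deletion either, or whether GE-like cells kept the gene.

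Hmga2 was a gene of APs. It stood at 83.2 CPM in WT AP-like cells (interval 78.0 to 88.7, 955 UMIs in 854 cells) and at 9.13 in IP-like cells. Next came 5.08 in endothelial-like cells, 2.45 in GE-like cells, 1.64 in migrating neuron-like cells and 0.946 in immature neuron-like cells. The gap from AP-like to IP-like cells exceeded the counting intervals in both libraries, whereas every neighbouring pair after the IP-like cells overlapped in WT. The low levels in neurons were not checked against RNA released from other cells. Outside the neural classes, the few meningeal fibroblast-like cells, 13 in WT and 26 in cKO, had 19.6 and 39.5 CPM from 4 and 17 UMIs.

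Lin28b had a different pattern. It was lowest in the dorsal progenitors and their newest neurons, at 1.22 CPM in AP-like, 1.11 in IP-like and 0.802 in migrating neuron-like WT cells, levels that overlapped. Immature neuron-like cells had 7.01 CPM (interval 6.17 to 7.93). Higher still were endothelial-like cells at 23.2, GE-like cells at 27.2 and Cajal-Retzius-like cells, the early-born neurons of the cortical surface, at 36.5, and these 3 levels overlapped in WT, whereas in cKO the Cajal-Retzius-like cells stood above the rest at 39.9. Microglia-like cells had 28.8 CPM from 11 UMIs. Lin28a had 1 UMI in all WT cells and 5 in all cKO cells.

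Igf2bp1 declined along the dorsal lineage. WT levels were 100 CPM in AP-like cells, 98.6 in IP-like, 70.4 in migrating neuron-like and 41.0 in immature neuron-like cells. The first pair overlapped and each later step exceeded the counting intervals, in cKO as in WT. GE-like cells lay between the neuron classes at 52.1 CPM, and endothelial-like cells reached 98.7.

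Igf2bp2 and Igf2bp3 were nearly flat over the neural classes. WT levels of Igf2bp2 ran from 59.8 CPM in GE-like to 72.7 in IP-like cells, with 28.5 in Cajal-Retzius-like and 19.6 in endothelial-like cells. Igf2bp2 was highest in meningeal fibroblast-like cells, at 172 CPM in WT and 97.6 in cKO, from 35 and 42 UMIs. Igf2bp3 ran from 148 CPM in immature neuron-like to 184 in GE-like WT cells and was 78.7 in Cajal-Retzius-like cells. Hmga1 was present throughout at 10.8 to 26.4 CPM in the WT neural classes, highest in IP-like cells, and was not detected in red blood cell-like cells, where 0 UMIs allow up to 16.4 CPM by the 95% interval.

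**Figure D3:**
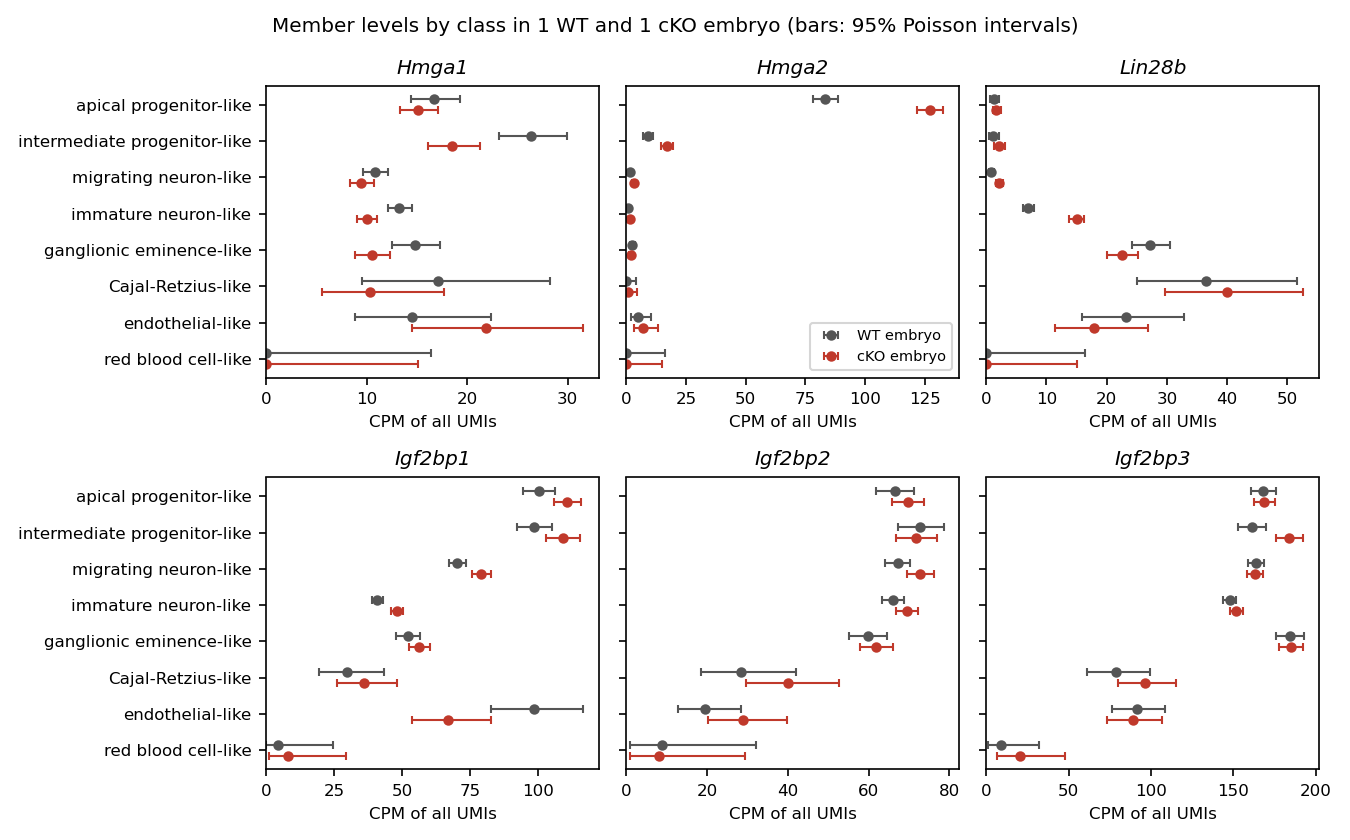
Levels of 6 of the genes by marker-named class in 1 WT and 1 cKO embryo at E14.5, as CPM of all UMIs of the class; bars are 95% Poisson intervals, which cover counting error only, and each panel has its own x axis from 0. Hmga2 stands out in AP-like cells, at 83.2 CPM in WT and 127 in cKO, and Lin28b in Cajal-Retzius-like, GE-like and endothelial-like cells.

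Between the embryos, Hmga2 was higher in the cKO embryo in the classes of the dorsal lineage. In AP-like cells it was 83.2 CPM in WT and 127 in cKO, a log2 ratio of 0.61 (95% counting interval 0.50 to 0.72). In IP-like cells it was 9.13 and 17.0 CPM (log2 ratio 0.89, 0.51 to 1.29), from 82 and 184 UMIs. Of 5 members with at least 200 UMIs in AP-like cells, Hmga2 alone exceeded a 1.2-fold difference, which 7.71% of genes exceeded upward and 6.27% downward. In IP-like cells 7.63% of genes exceeded it upward, and with doublets removed the log2 ratio of Hmga2 there was 0.55 (0.09 to 1.02). In GE-like cells, outside the Emx1 lineage, it was 2.45 and 1.93 CPM (log2 ratio −0.34, −1.17 to 0.49). These values are set side by side, and the difference between classes was not tested.

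The difference was present in both main clusters of AP-like cells. The cluster rich in cycling genes went from 106 to 154 CPM (log2 ratio 0.55) and the other from 66.4 to 110 (log2 ratio 0.73). Cell cycle phases were assigned after thinning each cell to 5000 UMIs. Hmga2 was 28.2 CPM in WT and 48.9 in cKO in G1, 93.3 and 123 in S, and 92.5 and 142 in G2/M. The G1 levels rested on 33 and 39 UMIs in 87 and 68 cells, and their intervals overlapped (19.4 to 39.7 and 34.8 to 66.9). S phase took 33.4% of the 682 WT and 44.2% of the 992 cKO AP-like cells given a phase, and G2/M took 53.8% and 49.0%. With the phases weighted equally, the scarce G1 cells included, the log2 ratio of Hmga2 was 0.55, for which no interval was computed. IP-like cells were less even, since the largest of their 4 clusters had 6.44 and 5.79 CPM and the other clusters were higher in cKO. In immature neuron-like cells the log2 ratio of 0.79 rested on 34 and 62 UMIs, and it was 0.31 (−0.37 to 1.01) without a cluster of uneven size described below. In migrating neuron-like cells the log2 ratio of 0.95 (0.41 to 1.51) rested on 45 and 82 UMIs. Of these, 15 and 40 came from a cluster led by the transcription factor gene Tfap2d. The other clusters of that class were also higher in cKO, with intervals that included 0.

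Hmga1 tended the other way. It was lower in cKO in IP-like cells, at 26.4 and 18.5 CPM (log2 ratio −0.51, −0.79 to −0.23), and in immature neuron-like cells, at 13.3 and 10.0 CPM (log2 ratio −0.41, −0.60 to −0.21). The GE-like cells had a like difference, at 14.8 and 10.5 CPM (log2 ratio −0.49, −0.83 to −0.16). In AP-like cells the log2 ratio was −0.14 with an interval that included 0 (−0.42 to 0.13). Downward differences beyond 1.2-fold were found for 4.8% of genes in IP-like, 5.29% in immature neuron-like and 4.66% in GE-like cells.

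Igf2bp1 was slightly higher in cKO in each dorsal class. Its log2 ratio was 0.14 in AP-like (0.04 to 0.25), 0.15 in IP-like (0.02 to 0.28), 0.17 in migrating neuron-like (0.08 to 0.26) and 0.23 in immature neuron-like cells (0.13 to 0.33). None of these exceeded 1.2-fold, and in migrating neuron-like cells, where 6.45% of genes did so upward and 5.19% downward, none of 4 members did. The clusters of the immature neuron-like class were uneven, with a log2 ratio of 0.45 (0.28 to 0.61) in the largest. In another of its clusters the ratio was −0.06 (−0.25 to 0.14), and the rest were above 0 with intervals that included 0. In GE-like cells the ratio was 0.11 with an interval that included 0 (−0.05 to 0.27), and 6.32% of genes there exceeded 1.2-fold upward. In endothelial-like cells, where 12.6% of genes exceeded 1.2-fold upward and 18.4% downward, Igf2bp1 went from 98.7 to 67.1 CPM (log2 ratio −0.56, −0.96 to −0.16).

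Igf2bp2 and Igf2bp3, both upregulated in the cultures, showed little in the tissue. In AP-like cells Igf2bp3 was 168 CPM in WT and 169 in cKO, a log2 ratio of 0.00 (−0.08 to 0.09), against 0.87 (SE 0.07) in the cultures. Igf2bp2 was 66.4 and 69.7 CPM, a log2 ratio of 0.07 (−0.06 to 0.20), against 0.45 (SE 0.10) in the cultures. For Hmga2 the values were 0.61 in AP-like cells and 2.74 in the cultures. The assays differ in chemistry, cells and replication, and these differences were not tested. Igf2bp3 was higher in cKO IP-like cells, at 161 and 184 CPM (log2 ratio 0.19, 0.09 to 0.29), a ratio that was 0.06 (−0.02 to 0.14) with coarser clusters. Mir99ahg, higher in the cKO cultures, was 1957 and 1972 CPM in AP-like cells (log2 ratio 0.01) and 453 and 299 CPM in immature neuron-like cells (log2 ratio −0.60, −0.64 to −0.57).

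**Figure D4:**
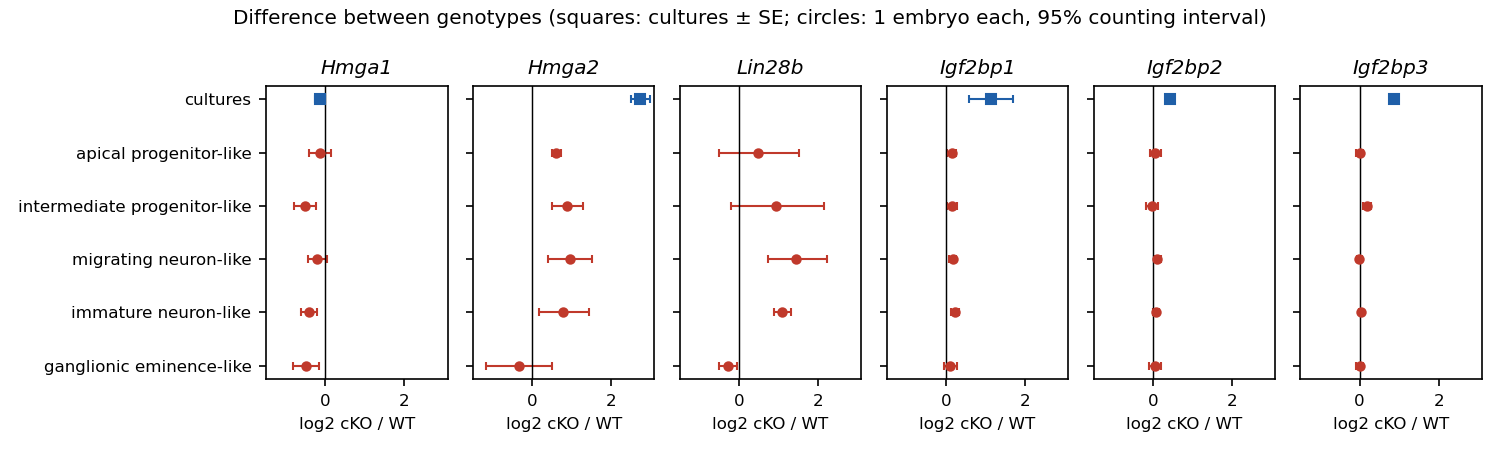
log2 ratio of cKO to WT for 6 of the genes in NPC cultures and in 5 classes of tissue cells; blue squares are edgeR log2 fold changes ± SE from 3 cultures per genotype, red circles compare 1 embryo per genotype with 95% counting intervals. Hmga2 lies above 0 in the cultures and in 4 dorsal classes, whereas Igf2bp3 is at 0.87 in the cultures and 0.00 in AP-like cells; Lin28b has no square because it failed the filter in the cultures.

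Lin28b was higher in cKO in both neuron classes of the dorsal lineage. In immature neuron-like cells it was at 7.01 CPM in WT (252 UMIs) and more in cKO (interval 13.8 to 16.3, 569 UMIs), a log2 ratio of 1.10 (0.88 to 1.32). Here 7.05% of genes exceeded 1.2-fold upward. In migrating neuron-like cells it was 0.802 and 2.20 CPM, from 22 and 57 UMIs (log2 ratio 1.46, 0.72 to 2.24). Of these UMIs, 11 and 35 came from a cluster led by Tfap2d, of 514 WT and 734 cKO cells (log2 ratio 1.25, 0.24 to 2.37). The other clusters of this class had 10 and 17, and 1 and 5 UMIs, with intervals that included 0. In GE-like cells Lin28b was lower in cKO, at 27.2 and 22.5 CPM (log2 ratio −0.28, −0.51 to −0.04). In AP-like and IP-like cells 14 and 28, and 10 and 23 UMIs left intervals that included 0.

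Part of the difference in immature neuron-like cells moved with the makeup of the class. A cluster led by Tafa1, Tafa2 and Nefm had 286 WT and 485 cKO cells and 4 and 118 Lin28b UMIs, or 0.799 and 16.4 CPM. At a finer resolution 108 of those 118 UMIs fell in a subgroup of 52 WT and 250 cKO cells, of which 17 and 189 came from that cluster and in which Tfap2d, a transcription factor gene, was 6.51 and 80.1 CPM. Within this subgroup Lin28b itself was 24.97 and 43.7 CPM (log2 ratio 0.81, 0.17 to 1.51). Lin28b was higher in cKO in 6 of 6 fine clusters with UMIs in both libraries, with log2 ratios of 0.50 to 1.56 and intervals above 0, the lowest bound being 0.0016. These clusters are parts of the same 1 WT and 1 cKO embryo and are not replicates. The fine cluster with the most Lin28b UMIs in WT, drawn mostly from a cluster led by Hs3st4, a gene of deep-layer neurons, went from 25.4 to 36.0 CPM (log2 ratio 0.50, 0.16 to 0.85). With each fine cluster given the same weight in both libraries, the log2 ratio of the class was 0.76 in place of 1.10.

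**Figure D5:**
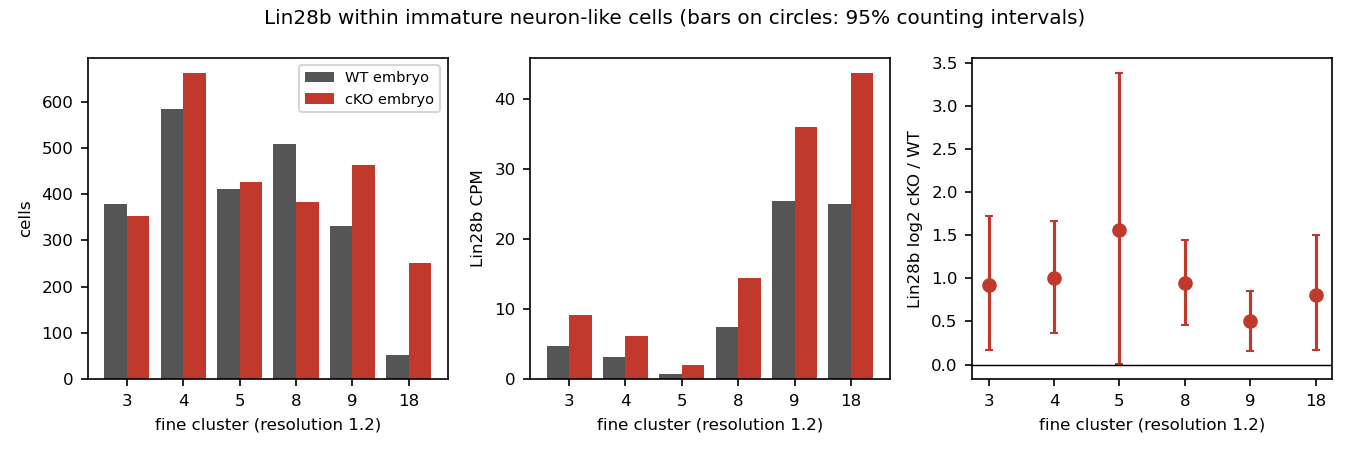
The 6 fine clusters of immature neuron-like cells that had Lin28b UMIs in both libraries, named by number, in 1 WT and 1 cKO embryo; the panels give cells per cluster, Lin28b CPM, and the log2 ratio of cKO to WT with 95% counting intervals. Cluster 18, the group high in Tfap2d, holds 52 WT and 250 cKO cells, and the ratio lies above 0 in all 6 clusters; a further one of 30 WT and 21 cKO cells, with 0 and 3 UMIs, is not drawn.

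Genes with the most similar pattern over the classes were sought among 12262 genes over 16 points, 8 classes in each library, by Pearson's r of log2(CPM + 1). These points share libraries, depth and the low red blood cell-like class, and r is given as a description. For Hmga2 the closest were Dapp1 (r = 0.978), Aldoc (0.977) and Crb2 (0.971), and for Lin28b the closest were Gm16083 (0.961), Epb41l1 (0.960) and Meg3 (0.960). For Igf2bp1 they were Sertad3 (0.982), Asxl2 (0.981) and Sf3a3 (0.978), and for Igf2bp2 they were Slc4a7 (0.983), Bcat1 (0.978) and Ccdc171 (0.976). For Igf2bp3 they were Dhx9 (0.995), Zfp280c (0.992) and Tra2a (0.991), and for Hmga1 they were Eif3a (0.982), Eif2b1 (0.980) and Btf3 (0.980). Among the 7 genes, Igf2bp2 and Igf2bp3 were the most alike (r = 0.937), and Hmga2 and Lin28b were the least alike (r = −0.23).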

How the data were processed

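Bulk RNA-seq reads were filtered by the authors with NGSQC, aligned to mm10 with HISAT2 and deposited as raw counts per gene and culture, with no normalization; for the counting program, annotation and strand setting, the answer is not given in the sources used here. Gene totals were 16962903 to 22708400 counts per culture. scRNA-seq was deposited as raw UMI counts per gene and barcode from Cell Ranger 7.0.0, per the file headers, for 10x 3′ v3.1 libraries. The SYNCRIP LACE-seq samples were not analysed here.

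The 7 genes, the gene lists and the tests were chosen with earlier results of these data known. Named genes were the 7 genes, Syncrip, the 3 genes of most similar pattern for each, members of lists of 12 or fewer genes and, from longer lists, the 3 called genes of largest change. Malsu1, Tfap2d, Dicer1, Drosha, Ccnd1, Insr and the leading genes of clusters were named after their values were seen.

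Genes were tested with edgeR 4.0.16 under R 4.3.3 (filterByExpr, TMM, robust quasi-likelihood test, Benjamini-Hochberg over 14432 genes, threshold 0.05). The SE was derived from the F statistic. On simulated data of 14278 genes for this comparison, 83 of 96 genes changed by 1 on the log2 scale and 96 of 97 changed by 2 were recovered, with 17 false calls. Far fewer genes changed in the simulation than the 39.5% called in the cultures, so that it does not describe the test at that share. Per-kilobase values used the union of annotated exons. Barcodes under 200 genes or over 10% mitochondrial UMIs were dropped and the rest clustered in Seurat 5.3.0 (2000 variable genes without the 7 genes, 30 components, resolution 0.8) and classes were named when at least 3 listed markers were raised with a mean standardized level of at least 0.5. Scrublet in scanpy 1.11.5 called 3.63% and 4.72% of cells doublets, which were kept in the main values. Of 28 clusters, 2 with 746 WT and 848 cKO cells stayed unnamed. Genotype ratios carry exact conditional 95% intervals. Alternatives used DESeq2 1.42.0 and limma 3.58.1. Gene positions came from GENCODE M21; the spans of Hmga1 and Lin28b in the count table differ from it. All 17 let-7 sites read the same in the RefSeq genome of that assembly. The result for 1 further gene is not reported here.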

Additional observations from a re-analysis of the deposited data

Results flagged for a closer look

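The log2 ratio of cKO to WT differed in direction between classes for 2 genes, with counting intervals on opposite sides of 0; these differences were not tested, since each class has 1 embryo per genotype. For Lin28b it was 1.10 in immature neuron-like cells and −0.28 in GE-like cells. For Igf2bp1 it was 0.14 in AP-like, 0.15 in IP-like, 0.17 in migrating neuron-like and 0.23 in immature neuron-like cells, and −0.56 in endothelial-like cells (136 and 86 UMIs). The endothelial-like cluster had a median of 2350 UMIs per cell, and it did not hold at other resolutions. At resolution 1.2 only 24 WT and 33 cKO cells were named endothelial-like. A cluster of 103 WT and 82 cKO cells with a median of 2210 UMIs was then named pericyte-like. At resolution 0.4 no cluster was named endothelial-like.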

How the results depend on the processing

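The calls for Hmga2, Igf2bp2 and Igf2bp3 in the cultures held under 13 alternatives each (other scalings, no filter, DESeq2, limma-voom, a replicate block, sex as a covariate and leaving out each culture), with log2 fold changes of 2.63 to 2.89, 0.39 to 0.49 and 0.84 to 0.92. Igf2bp1 passed only without WT replicate 3, and Hmga1 under none. Leaving out 1 culture gave 3 to 4 of the 7 genes called and 4108 to 6345 of all genes against 5701. The replicate block called 6405 genes and the same 3 genes. Correlations of same-numbered cultures were 0.264, −0.0466 and 0.116, and only for replicate 1 was the own number the highest from both sides. Whether the numbers pair the cultures is therefore not settled. In the tissue, Hmga2 in AP-like cells was 75.5 and 115 CPM at resolution 0.4, 75.6 and 115 at 1.2, and 134 in cKO with doublets removed, while its log2 ratio stayed between 0.55 and 0.71. Lin28b in immature neuron-like cells was 5.93 and 10.97 CPM at resolution 0.4, and its log2 ratio was 0.87 without the uneven cluster and 0.76 with fine clusters weighted alike, alternatives chosen after seeing the data, as was leaving out a cluster of low UMI counts from AP-like cells, where Hmga2 gave 0.60. No direction reversed among the intervals that excluded 0. Depth limits Lin28a everywhere, and Lin28b and Igf2bp1 in the cultures.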
